A study of Danio rerio with 4 samples.

Results

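The genes described here are the insulin-like growth factor (Igf) ligands *igf1*, *igf2a* and *igf2b*, the Igf type 1 receptors, and the Igf-binding proteins 3, 5 and 6 with their zebrafish copies. They were taken from a fixed list of symbols, matched in any case with both copies kept where the gene-name table drops the paralogue letter, which gave 10 of the 31901 genes counted. The libraries were made from zebrafish (*Danio rerio*) caudal fins that had regenerated for 96 hours after amputation. One group was heterozygous for *longfin*, a dominant allele with overgrown fins, and the other was its wildtype clutchmates, and fish of both groups carried the sp7:eGFP transgene, which marks osteoblasts. The tissue was the tip of the regenerate beyond the GFP-positive cells, dissected and pooled from 4 fins per library, with 2 libraries per genotype. Neither the age of the fish nor the clutch or day behind each pool is given in the sources used here, and p-values therefore reflect the spread of these libraries alone, which may be partly technical.

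Igf ligands are small secreted proteins that activate Igf1r, a receptor tyrosine kinase. The receptor signals through insulin receptor substrates to PI3 kinase and Akt, which promote growth through mTOR and keep FoxO transcription factors out of the nucleus. Igf-binding proteins hold the ligands outside the cell, where proteases can set them free. In the zebrafish fin *igf2b* is known from the blastema, and Igf1r signalling is known to be needed for outgrowth.

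The libraries held 19428186 to 23157979 reads in genes. Markers of the tip were present, with the summed level of 13 blastema mesenchyme genes at 4166 and 4161 CPM (the usual read count scaled to library size) in longfin and 3523 and 3513 CPM in wildtype libraries. Osteoblast markers were present too in this GFP-negative tissue. Their sum over 10 genes ran from 2257 to 2636 CPM in longfin and from 2394 to 3212 CPM in wildtype, and SP7 itself, the gene whose regulatory region drives the reporter, lay at 45.4 to 57.4 CPM, while *bglap* had no reads in any library. Superficial epidermal markers summed over 7 genes to 7746 and 8455 CPM in longfin and to 10384 and 10737 CPM in wildtype libraries. Endothelial markers summed to at most 64.1 CPM and pigment cell markers to at most 8.38 CPM. The part of these cell types in the values below was not tested. In tissue of many cell types, fewer cells of a type and less RNA per cell cannot be told apart.

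Of the 10 genes, 7 had enough reads to be tested and 3 did not. Tested genes were compared between genotypes by edgeR's quasi-likelihood test, with Benjamini-Hochberg adjustment over all 18366 genes tested and a threshold of 0.05. By this test, which has no replicate term, 0 of the 7 changed, against a background of 0.403% of all genes, and DESeq2 and limma voom also called 0. Calls with a replicate term differed and are given with the dependence on processing. At an unadjusted p under 0.05 there was 1 of the 7 (*igf2b*, lower in longfin), against a background of 9.48%. Values of longfin and wildtype libraries did not overlap for 2 of the 7, against 39.8% of all genes tested. The log2 fold changes of longfin over wildtype ran from -0.66 to 0.12 with a median of -0.12. The median over all genes was -0.0015. Of the 7 genes 6 lay below 0, as did 9238 of all 18366 genes. Among those 6, IGF1R ENSDARG00000034434 and *igfbp6b* turned sign when 1 library was left out. With 1 library left out the median of the 7 ran from -0.22 (without longfin replicate 1) to -0.020 (without longfin replicate 2). CPM values are scaled for library size and composition and not for transcript length, so levels are compared here between libraries and not between genes.

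**Figure D1:**
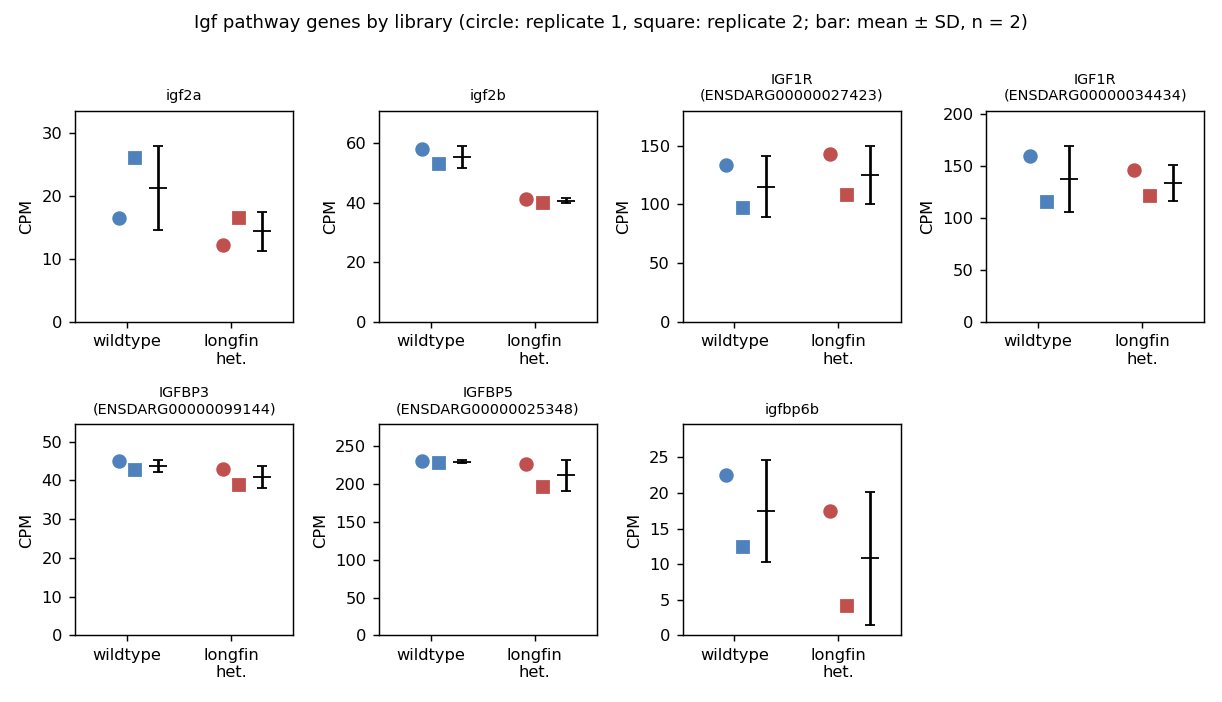
CPM (y axis, from 0) of the 7 tested Igf genes in each of the 4 libraries, by genotype (x axis), with the mean ± SD of 2 libraries as black bars. The *igf2b* values of 41.2 and 40.0 CPM in longfin lie below the 58.0 and 52.8 CPM of wildtype, and longfin replicate 2 is the lowest library for *igfbp6b* at 4.16 CPM.

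Among the ligands, *igf2b* (ENSDARG00000033307) showed the smallest p of the 10 genes. Its level was 41.2 and 40.0 CPM in longfin replicates 1 and 2 and 58.0 and 52.8 CPM in wildtype replicates 1 and 2. Both longfin libraries lay below both wildtype libraries, by more than the libraries of a genotype differed from each other. Longfin averaged 40.6 ± 0.838 CPM and wildtype 55.4 ± 3.67 CPM (SD, n = 2 each). The log2 fold change was -0.45 ± 0.10 (SE), a ratio of 0.733 with a 95% interval of 0.625 to 0.86 that is not adjusted for the number of genes. The unadjusted p was 0.00252, which ranked 261 among all genes, and edgeR's adjusted p of 0.177 did not pass. With any 1 library left out the log2 fold change stayed between -0.51 and -0.38. The summed superficial epidermal markers were also lower in both longfin libraries and the summed blastema markers were higher. TNC (ENSDARG00000021948) gave the largest part of the blastema sum, at 2116 and 2354 CPM in longfin and 1844 and 1971 CPM in wildtype. In the superficial sum that was *krt91*, at 4210 and 4464 CPM in longfin and 5111 and 5933 CPM in wildtype. The superficial list was uneven, and 2 of its 7 genes passed edgeR's test, against 0.403% of all genes. These were KLF4 (-2.69, adjusted p = 0.00372) and *pkp3a* (-1.05, adjusted p = 0.00908). Blastema genes on the other side were PRRX1 ENSDARG00000033971 (-0.44), ALDH1A2 (-0.05) and *twist1a* (-0.02), and of the superficial list *cldne* (0.09). The part of these cell types in the *igf2b* values was not tested.

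The other copy of the second ligand, *igf2a* (ENSDARG00000018643), varied more. It had 12.2 and 16.5 CPM in longfin replicates 1 and 2 and 16.4 and 25.9 CPM in wildtype replicates 1 and 2. Longfin replicate 2 and wildtype replicate 1 were nearly level, so the genotypes overlapped, and within each genotype replicate 2 was the higher library. Longfin averaged 14.3 ± 3.04 CPM and wildtype 21.2 ± 6.71 CPM (SD, n = 2 each). The log2 fold change of -0.58 ± 0.26 (SE) had an adjusted p of 0.579 in edgeR's test, and the 95% interval of the ratio reached from 0.432 to 1.04. The value leaned on single libraries, at -0.20 when wildtype replicate 2 was left out, -0.37 for longfin replicate 1, -0.81 for longfin replicate 2 and -0.86 for wildtype replicate 1. The summed osteoblast markers were highest in wildtype replicate 2 too, but the list was mixed. Most of each sum came from COL10A1 (ENSDARG00000054753), at 1875 and 2199 CPM in longfin and 2021 and 2693 CPM in wildtype. SP7, *runx2b* and PHEX were highest in longfin replicate 2, and RUNX2 in wildtype replicate 1. Both COL10A1 copies, *spp1*, ENTPD5 and IFITM5 were highest in wildtype replicate 2. Also highest there were the summed markers of basal and superficial epidermis, red blood cells, macrophages and neutrophils, and nerve and glia. Those of blastema mesenchyme, endothelium, pigment cells and skeletal muscle were not. Single genes led some sums. In the basal sum it was *krt5*, at 9094 and 10021 CPM in longfin and 9217 and 11854 CPM in wildtype. Of its other genes only *col17a1a* was highest in wildtype replicate 2, while TP63, LAMA5, *fras1* and both FREM2 copies were lowest there. Of the superficial genes only *krt91* and KLF4 were highest in wildtype replicate 2. The nerve and glia sum was mostly *erbb3b*. The macrophage and neutrophil sum was nearly level with that of longfin replicate 2. The part of any of these cell types in the *igf2a* values was not tested. Of the reads of both *igf2* copies, *igf2a* took 22.8% in longfin replicate 1 (95% exact binomial interval 20.4 to 25.3), 29.1% in longfin replicate 2 (26.5 to 31.9), 22.1% in wildtype replicate 1 (19.9 to 24.4) and 32.9% in wildtype replicate 2 (30.8 to 35.1). The share thus differed between libraries of a genotype beyond counting error and overlapped between genotypes. It depends on transcript length too, and such intervals cover counting error only.

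IGF1 (ENSDARG00000094132), the ligand known from growth hormone-driven growth and made mainly by the liver in adults, was close to absent. It had 2 and 5 reads in longfin and 6 and 9 reads in wildtype libraries, at most 0.376 CPM, and fell below the count filter. Summed per genotype there were 7 reads in longfin against 15 in wildtype, a ratio of 0.476 with a 95% exact conditional interval of 0.164 to 1.24 (two-sided exact p = 0.134), and at this depth a difference was not detectable.

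Both receptor genes carry the symbol IGF1R, and the files and tables do not say which is *igf1ra* and which *igf1rb*. The copy ENSDARG00000027423 had 143 and 108 CPM in longfin replicates 1 and 2 and 133 and 96.8 CPM in wildtype replicates 1 and 2. The copy ENSDARG00000034434 had 146 and 121 CPM in longfin replicates 1 and 2 and 160.0 and 115 CPM in wildtype replicates 1 and 2. For either copy the libraries numbered 1 were high and those numbered 2 were low in both genotypes, and the genotypes overlapped.

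The difference between genotypes was smaller than that between libraries of a genotype for both receptor copies. The log2 fold change was 0.12 ± 0.20 (SE) for ENSDARG00000027423 (edgeR adjusted p = 0.909) and -0.04 ± 0.18 for ENSDARG00000034434 (adjusted p = 0.969). Ratios from 0.768 to 1.55 for the first copy and from 0.717 to 1.32 for the second lay within the 95% intervals, so changes of that size are not shown to be absent. Either sign turned when 1 library was left out, with values from -0.09 to 0.37 for the first copy and from -0.26 to 0.22 for the second. The first copy took 49.4% (48.2 to 50.65) and 47.0% (45.6 to 48.5) of the reads of the pair in longfin replicates 1 and 2 and 45.4% (44.1 to 46.8) and 45.7% (44.3 to 47.1) in wildtype, so the balance between the copies moved by at most a few percentage points.

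IGFBP3 and the tested IGFBP5 copy, whose proteins bind both Igf1 and Igf2 in mammals, differed by less than 10% between the genotype means. IGFBP3 (ENSDARG00000099144) had 42.9 and 38.9 CPM in longfin and 44.9 and 42.6 CPM in wildtype replicates 1 and 2. Its genotypes overlapped, with a log2 fold change of -0.09 ± 0.10 (SE), an edgeR adjusted p of 0.845 and a 95% interval of the ratio from 0.794 to 1.1. With 1 library left out it ran from -0.17 to -0.024. IGFBP5 (ENSDARG00000025348), in mammals known from bone and matrix, had 226 and 197 CPM in longfin and 231 and 228 CPM in wildtype. Both longfin libraries lay below both wildtype libraries, though longfin replicate 1 and wildtype replicate 2 were almost level. The log2 fold change was -0.12 ± 0.09 (SE), with an edgeR adjusted p of 0.772 and a 95% interval of the ratio from 0.79 to 1.08. With 1 library left out it ran from -0.22 to -0.020.

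The second IGFBP5 gene, ENSDARG00000039264, was near the detection limit. It had 4 and 5 reads in longfin and 9 and 18 reads in wildtype libraries, at most 0.751 CPM, and was not tested across genes. The summed reads gave a longfin to wildtype ratio of 0.34, with 0.141 to 0.744 as the 95% exact conditional interval (two-sided exact p = 0.00399). Only counting error enters that test, and it speaks of these libraries, in which the wildtype counts themselves differed as 9 and 18. The tested IGFBP5 copy took 99.7 to 99.9% of the reads of the pair in all 4 libraries.

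The binding protein 6 copies differed in whether they were read at all. In mammals this protein prefers Igf2 over Igf1. *igfbp6a* (ENSDARG00000070941) had 1 and 0 reads in longfin and 0 and 1 reads in wildtype, which is below the floor of 3 reads per genotype, 0.072 CPM in longfin and 0.0707 CPM in wildtype. *igfbp6b* (ENSDARG00000090833) had 388 and 81 reads in longfin replicates 1 and 2 and 418 and 298 reads in wildtype replicates 1 and 2, or 17.5, 4.16, 22.6 and 12.4 CPM.

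Longfin replicate 2 stood alone as the low library of *igfbp6b*, while longfin replicate 1 lay between the wildtype libraries. The log2 fold change was -0.66 ± 0.77 (SE) with an edgeR adjusted p of 0.868, and leaving out 1 library gave 0.0057 for longfin replicate 2, -2.06 for longfin replicate 1, -0.18 for wildtype replicate 1 and -1.04 for wildtype replicate 2. Its biological coefficient of variation between libraries was 0.547, where genes of its abundance had 0.138 by the fitted trend and the 6 other tested genes of the set had 0.0894 to 0.19. A 95% interval of the ratio from 0.135 to 2.96 leaves the direction undetermined.

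**Figure D2:**
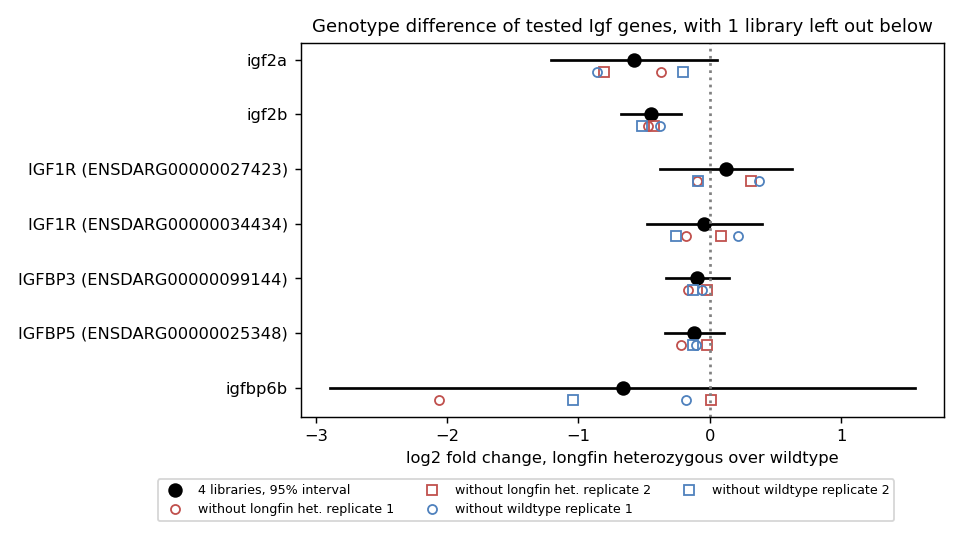
Log2 fold change of longfin heterozygous over wildtype (x axis) for the 7 tested Igf genes, with black points for the fit to 4 libraries, black lines for the 95% interval and open symbols for fits with 1 library left out. Only the interval of *igf2b* excludes 0, before adjustment over genes, and *igfbp6b* moves from -2.06 to 0.0057 with the library left out.

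The rest of the pathway was read from a list of 90 genes, of which 81 were tested. By edgeR's test over all genes 0 changed, against 0.403% of all genes, and limma voom also called 0. DESeq2, which kept 89 genes of the list, called 2 (GRB10 ENSDARG00000002013 and FOXO1 ENSDARG00000061549, both lower). Over all genes DESeq2 called 290 of 26176. At an unadjusted p under 0.05 there were 5 higher, against a background of 3.66%, and 8 lower, against 5.82%, which together is 16% of the 81 genes. Their median log2 fold change was -0.0073, and 5 of the 81 differed by more than 1.5-fold in either direction, as did 1582 of all 18366 genes. Longfin and wildtype values did not overlap for 37 of the 81, 45.7% against 39.8% of all genes.

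**Figure D3:**
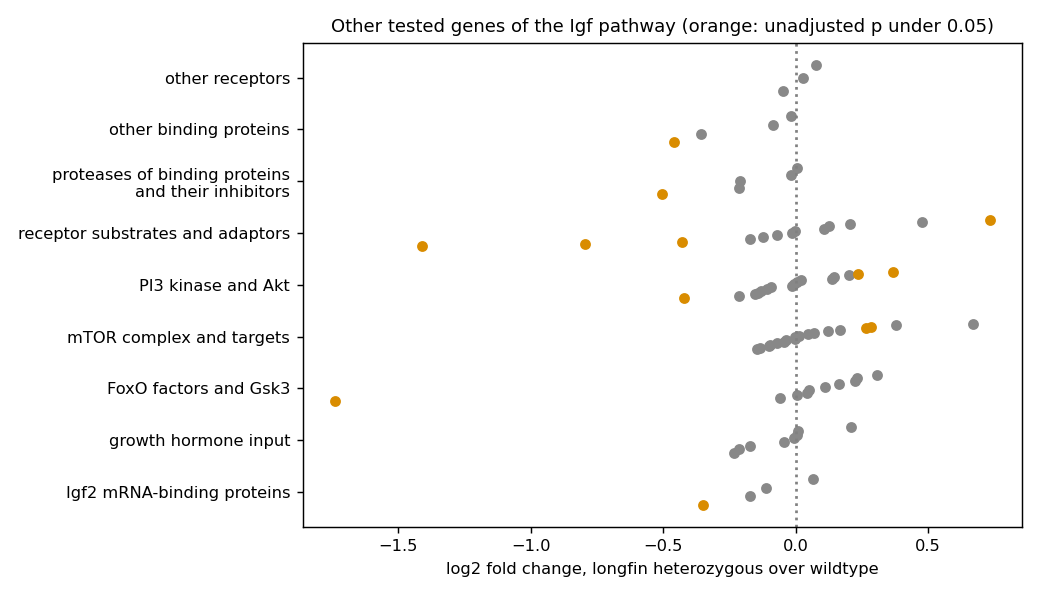
Log2 fold change of longfin heterozygous over wildtype (x axis) of the 81 other tested pathway genes, 1 point per gene, by role (y axis), with the 13 genes at an unadjusted p under 0.05 in orange. Most points lie near 0. All 4 other binding proteins and 4 of 5 proteases and inhibitors lie below 0, as do 9238 of all 18366 genes. Among them IGFBP2 ENSDARG00000031422 (-0.09), IGFBP7 (-0.02) and HTRA1 ENSDARG00000032831 (-0.02) lie close to it. Of the FoxO and Gsk3 genes 8 of 10 lie above 0, as do 9128 of all 18366 genes. The FOXO1 and GRB10 copies at -1.74 and -1.41 stand farthest out.

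Of the further receptors 0 of 3 passed edgeR's test at an adjusted p under 0.05, against 0.403% of all genes. At an unadjusted p under 0.05 it was also 0 of 3, against 9.48%. The further ligands had too few reads to be tested. Insulin genes were at the detection limit, with 1 read of *ins* and 10 reads of *insb* over the 4 libraries, and *igf3*, known from the gonads of fish, had 0 reads, which allows up to 0.072 CPM in longfin and 0.0707 CPM in wildtype. INSR (ENSDARG00000071524), an insulin receptor gene, had 116 and 91.9 CPM in longfin and 112 and 92.2 CPM in wildtype replicates 1 and 2, so its libraries numbered 1 were the higher ones, like those of IGF1R. Its log2 fold change was 0.03. A second INSR gene, ENSDARG00000011948, did not share that pattern. It had 54.2 and 57.8 CPM in longfin and 62.7 and 53.0 CPM in wildtype replicates 1 and 2, with a log2 fold change of -0.05. IGF2R (ENSDARG00000006094), which in mammals clears Igf2 from the cell surface, had a log2 fold change of 0.08.

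Of 4 tested other binding proteins 0 passed edgeR's test over all genes, against 0.403% of all genes. IGFBP1 (ENSDARG00000099351), a binding protein known to rise with fasting and hypoxia, had 50.4 and 33.9 CPM in longfin and 58.2 and 57.9 CPM in wildtype. Both longfin libraries were lower, replicate 2 more than replicate 1, with a log2 fold change of -0.46 ± 0.18 (SE), an unadjusted p of 0.0464 and an edgeR adjusted p of 0.512. It was -0.20 without longfin replicate 2 and -0.77 without longfin replicate 1. IGFBP2 (ENSDARG00000031422) stood at -0.09 on the log2 scale. A second IGFBP2 gene, ENSDARG00000052470, had 4.68 and 4.63 CPM in longfin and 6.43 and 5.55 CPM in wildtype. Its log2 fold change was -0.36 ± 0.19 (SE) and its edgeR adjusted p 0.657.

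Of 5 tested genes for proteases that cut binding proteins and for their inhibitors, 0 passed as well, against 0.403% of all genes. The serine protease HTRA1, which in mammals cleaves Igfbp5, has 2 counted copies, with log2 fold changes of 0.0045 for ENSDARG00000014907 and -0.02 for ENSDARG00000032831, and the sign of either turned under other scalings or filters. STC1 (ENSDARG00000003303) encodes a stanniocalcin, known in mammals to inhibit the Igfbp protease PAPP-A. It had 8.06 and 6.99 CPM in longfin and 10.8 and 10.6 CPM in wildtype, with both longfin libraries lower, a log2 fold change of -0.50 ± 0.16 (SE) and an edgeR adjusted p of 0.367.

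Of 13 receptor substrates and adaptors, 1 was higher and 3 were lower at an unadjusted p under 0.05, where 3.66% and 5.82% of all genes were. GRB10 encodes an adaptor that in mammals binds insulin and Igf1 receptors and restrains their signal. Its copy ENSDARG00000002013 had 12.6 and 13.7 CPM in longfin and 26.5 and 43.2 CPM in wildtype replicates 1 and 2. Both longfin libraries lay well below both wildtype libraries, which themselves differed widely. Longfin averaged 13.1 ± 0.759 CPM and wildtype 34.8 ± 11.8 CPM (SD, n = 2 each). This log2 fold change of -1.41 ± 0.24 (SE) had an edgeR adjusted p of 0.121. It passed with DESeq2 (adjusted p = 1.4e-06) and, in edgeR's test, without wildtype replicate 1 (-1.72, adjusted p = 0.00748) or without wildtype replicate 2 (-1.01, adjusted p = 0.032). Over the alternatives without a replicate term its adjusted p ran from 1.4e-06 to 0.483.

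The other GRB10 copy, ENSDARG00000035308, was lower too, at 33.4 and 33.0 CPM in longfin against 49.8 and 39.8 CPM in wildtype. Its log2 fold change was -0.43 ± 0.13 (SE), at an edgeR adjusted p of 0.347. The first copy took 27.4% and 29.3% of the reads of the pair in longfin replicates 1 and 2 but 34.7% and 52.0% in wildtype replicates 1 and 2. That first copy was named for its low p, so its share restates the same counts. The related adaptor gene GRB14 (ENSDARG00000068280) had 2.12 and 1.70 CPM in longfin and 3.57 and 3.13 CPM in wildtype, a log2 fold change of -0.80 ± 0.27 (SE) and an edgeR adjusted p of 0.417.

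The receptor substrate gene *irs4a* (ENSDARG00000086551) lay on the other side, with 12.0 and 11.0 CPM in longfin and 7.35 and 6.55 CPM in wildtype. Both longfin libraries were higher. The log2 fold change was 0.73 ± 0.16 (SE) and edgeR's adjusted p 0.175. The more widely known substrates IRS1 (ENSDARG00000054087) and IRS2 (ENSDARG00000075282) had log2 fold changes of -0.12 and -0.17 with overlapping genotypes. A second IRS2 gene, ENSDARG00000037099, stood at 0.48 ± 0.37 (SE), with overlapping genotypes as well.

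Among PI3 kinase and Akt genes 2 were higher and 1 lower of 16 at an unadjusted p under 0.05, against 3.66% and 5.82% of all genes. AKT2 (ENSDARG00000103612), an Akt kinase gene, had 40.2 and 40.3 CPM in longfin and 31.2 and 31.1 CPM in wildtype, so the libraries of each genotype were almost identical. Its log2 fold change was 0.37 ± 0.09 (SE) and its edgeR adjusted p 0.253. A second gene of that symbol, ENSDARG00000011219, had 104 and 103 CPM in longfin and 96.0 and 84.1 CPM in wildtype. Its log2 fold change was 0.20 ± 0.10 (SE) and its edgeR adjusted p 0.602. *pik3r3a* (ENSDARG00000103038), a regulatory subunit of PI3 kinase, was lower, with 64.1 and 53.8 CPM in longfin and 84.7 and 73.3 CPM in wildtype, a log2 fold change of -0.42 ± 0.12 (SE) and an edgeR adjusted p of 0.331. PDPK1 (ENSDARG00000018285), a kinase gene whose product activates Akt, stood at 0.23. The regulatory subunit genes PIK3R1 (ENSDARG00000038524) and *pik3r2* stood at -0.13 and -0.09.

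Downstream, the median log2 fold change over 18 mTOR genes was 0.0053. Both copies of TSC1, which encodes an inhibitor of mTOR complex 1, were higher in both longfin libraries, at 0.26 (ENSDARG00000026048) and 0.28 (ENSDARG00000057918), with edgeR adjusted p-values of 0.498 and 0.51. RPS6 (ENSDARG00000019778), whose ribosomal protein is phosphorylated on mTOR signalling, stood at -0.0018, with a sign that turned under other scalings, and EIF4EBP2 (ENSDARG00000031819), a translation repressor gene, at -0.10.

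The lowest p of the pathway list belonged to FOXO1 ENSDARG00000061549, a gene of the forkhead factors that Akt restrains. It had 56 and 36 reads in longfin and 156 and 153 reads in wildtype replicates 1 and 2, or 2.52 and 1.85 CPM against 8.43 and 6.39 CPM. Both longfin libraries lay far below both wildtype libraries. Longfin averaged 2.19 ± 0.474 CPM and wildtype 7.41 ± 1.45 CPM (SD, n = 2 each). This log2 fold change of -1.74 ± 0.26 (SE) had an edgeR adjusted p of 0.0587. It passed edgeR's test with upper quartile scaling (adjusted p = 0.0495), with library size only (0.00568), without the low count filter (0.0288) and without wildtype replicate 2 (0.028), and it passed with DESeq2 (0.000398). Over the alternatives without a replicate term its adjusted p ran from 0.000398 to 0.299.

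The other FOXO1 copy, ENSDARG00000099555, had overlapping genotypes, at 107 and 92.8 CPM in longfin and 113 and 72.5 CPM in wildtype, a log2 fold change of 0.11 ± 0.22 (SE). The first copy took 2.3% (95% exact binomial interval 1.74 to 2.98) and 1.95% (1.37 to 2.7) of the reads of the pair in longfin and 6.95% (5.93 to 8.08) and 8.1% (6.91 to 9.42) in wildtype libraries. The intervals do not meet between genotypes, but they cover counting error only, and replicate libraries differed beyond it. That copy was also named for its low p, so its share restates the same counts. The kinase gene GSK3B (ENSDARG00000017803) stood at 0.05.

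**Figure D4:**
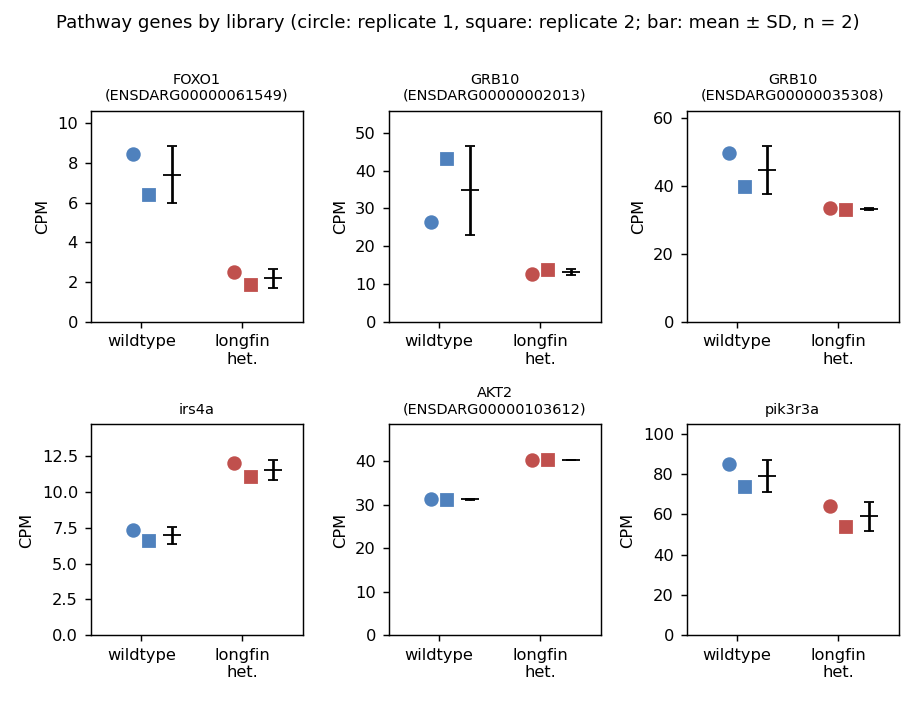
CPM (y axis, from 0) of 6 pathway genes in each of the 4 libraries, by genotype (x axis), with the mean ± SD of 2 libraries as black bars. The 6 are the genes of the list with the lowest p, so their genotypes do not overlap by choice (39.8% of all genes do not), with FOXO1, both GRB10 copies and *pik3r3a* lower and *irs4a* and AKT2 higher in longfin, and none passes edgeR's test over all genes without a replicate term.

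Input from growth hormone and the RNA-binding proteins of Igf2 closed the list. Of 8 growth hormone receptor, Jak2, Stat5 and Socs genes 0 had an unadjusted p under 0.05 in edgeR's test, against 9.48% of all genes. Their log2 fold changes ran from -0.23 to 0.21. JAK2 (ENSDARG00000018882) and *jak2a* stood at 0.0059 and 0.0076, and their signs turned with other settings. *igf2bp2b* (ENSDARG00000099758), of a family that in mammals binds the IGF2 message, had 43.0 and 50.02 CPM in longfin and 60.8 and 57.6 CPM in wildtype. Both longfin libraries were lower, as for *igf2b*, with a log2 fold change of -0.35 ± 0.11 (SE) and an edgeR adjusted p of 0.367. IGF2BP2 (ENSDARG00000003421) stood at -0.11 with overlapping genotypes.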

How the data were processed

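Per the labels' protocols, RNA was extracted with TRIzol and libraries were made with a stranded Kapa mRNA kit. Alignment and counting used TopHat2 and HTSeq on GRCz11 (danRer11), per the submitters' processing notes. The sources used here do not give versions, annotation release or strand setting, so antisense or overlapping genes are uncertain. The deposited values are raw read counts per Ensembl gene ID. An unnamed total row and the HTSeq classes of unassigned reads were left out. Reads not uniquely aligned were 28.7 to 41.9% of a library, which could lower near-identical paralogues. RefSeq lists *igf2a* and *igf2b*, and *igfbp5a* and *igfbp5b*, as synonyms of each other, so the IDs decide.

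Counts were analysed in R 4.3.3 with edgeR 4.0.16 (filterByExpr by genotype with minimum count 10 and minimum total 15, TMM, robust glmQLFit, glmQLFTest, two-sided, no replicate term) on all 4 libraries. Standard errors were taken as the log2 fold change over the root of F. Genes below the filter were compared as summed counts by an exact conditional test. In simulated data with 18366 genes the test recovered 95% of 100 genes changed by 1 on the log2 scale, and 12 unchanged genes were called. Every simulated gene varied exactly as the fitted trend, and only genes above a minimum CPM were changed. The recovery therefore does not hold for genes that vary more, such as *igfbp6b* (0.547 against 0.138 by the trend), or for genes with few reads. Variation was above the trend for *igf2a* (0.19 against 0.132) and both IGF1R copies (0.151 against 0.0986 and 0.137 against 0.0983) as well. Changes smaller than 1 were not simulated, and those of the tested Igf genes ran from -0.66 to 0.12, so the recovery does not cover changes of that size. Replicate libraries differed beyond sampling noise (chi-square over its degrees of freedom was 19.0 in longfin and 27.6 in wildtype). Of 92 pathway and 78 marker symbols, 88 and 71 were matched. Named pathway genes are the 2 of highest CPM per role and the 5 of lowest p. The others (INSR ENSDARG00000011948, IGFBP2 ENSDARG00000052470, GRB10 ENSDARG00000035308, GRB14, IRS2 ENSDARG00000037099, AKT2 ENSDARG00000011219, STC1, PDPK1, TSC1, *ins*, *insb*, *igf3*, *igfbp1b*) were chosen after their values were seen. The members and lists were chosen with earlier results of these data known. Alternatives were DESeq2 1.42.0 and its size factors, upper quartile scaling, library size only, no filter, a mean count of at least 50, limma 3.58.1 voom, a replicate block and leaving out each library.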

Additional observations from a re-analysis of the deposited data

How the results depend on the processing

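Of the Igf genes 0 passed under 11 of 12 alternatives, the exception being the replicate block. The pathway list had 1 gene past the threshold when scaled by upper quartile, 1 when scaled by library size only, 1 with no low count filter, 2 with DESeq2, and 0 to 2 with 1 library left out. Over all genes 74 passed, against 219 with library size only, 130 with no low count filter, 290 with DESeq2, and 1 to 163 with 1 library left out. The cause was not tested.

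The replicate numbers come from the titles, and no label says what they share; same-numbered libraries deviated together over genes (correlation 0.279, 2 pairs), which does not make them pairs. With the replicate block 794 of all 18366 tested genes passed. Among the 7 tested Igf genes 2 did (*igf2a* at -0.55, adjusted p = 0.0173, and *igf2b* at -0.45, adjusted p = 0.0069, in edgeR's test). Among the 81 tested genes of the pathway list 6 did (FOXO1 ENSDARG00000061549 at -1.76, adjusted p = 0.000261 in edgeR's test, GRB10 ENSDARG00000002013 at -1.37, 0.000773, *pik3r3a* at -0.42, 0.00534, *irs4a* at 0.73, 0.0142, GRB10 ENSDARG00000035308 at -0.42, 0.0252, and AKT2 ENSDARG00000103612 at 0.37, 0.0351). Over all alternatives the adjusted p ran up to 0.852 for *igf2a* and 0.636 for *igf2b*.

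Signs turned for values near 0. With library size only they were 0.0012 for IGF1R ENSDARG00000034434, 0.0089 for HTRA1 ENSDARG00000032831 and 0.030 for RPS6. With upper quartile scaling HTRA1 ENSDARG00000032831 was 0.0089 and RPS6 0.025. RPS6 was 0.0048 with no low count filter and 0.0019 with DESeq2, HTRA1 ENSDARG00000014907 was -0.00054 among genes averaging 50 or more reads, and *jak2a* was -0.024 with limma voom and -0.0061 with the replicate block.

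With 1 library left out the log2 fold changes ran from -0.095 to 0.37 for IGF1R ENSDARG00000027423, -0.26 to 0.22 for IGF1R ENSDARG00000034434 and -2.06 to 0.0057 for *igfbp6b*. They ran from -0.15 to 0.18 for INSR ENSDARG00000071524 and -0.27 to 0.080 for IGFBP2 ENSDARG00000031422. For HTRA1 ENSDARG00000014907 and ENSDARG00000032831 they were -0.13 to 0.16 and -0.095 to 0.069. Ranges were -0.53 to 0.31 for IRS2 ENSDARG00000075282, -0.25 to 0.019 for IRS1 and -0.18 to 0.0056 for *pik3r2*. Further ranges were -0.046 to 0.043 for RPS6, -0.19 to 0.0029 for EIF4EBP2 and -0.023 to 0.12 for GSK3B. The last were -0.18 to 0.46 for FOXO1 ENSDARG00000099555, -0.052 to 0.064 for JAK2, -0.28 to 0.26 for *jak2a* and -0.29 to 0.043 for IGF2BP2. Over 30 named genes and their alternatives, 309 values kept sign and side of the threshold, 36 turned sign and 15 newly passed. At this depth IGF1, *igfbp6a* and the second IGFBP5 gene were too low for the test across genes.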

Other observations

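Libraries numbered 1 and 2 differed alike in both genotypes for some of these genes, as they did for many genes outside the lists. Of the 7 tested Igf genes, 4 were higher in both libraries numbered 1 than in both numbered 2, and 1 (*igf2a*) was lower. Among the 81 other pathway genes the counts were 25 and 6, or 30.9% and 7.41%, where all 18366 genes gave 19.4% and 19.2%. Both directions together were thus about as frequent in the pathway list as over all genes, and only the split by direction differed. The cause of that split was not tested.

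Likeness of profiles was read for the tested IGFBP5 copy, chosen by its CPM, which is not scaled for length. Of 9967 other genes with a mean of at least 10 CPM, the profiles over the 4 libraries nearest to it were those of *prdm1b*, ZNF644 (ENSDARG00000102025) and UHMK1 (ENSDARG00000059575), within 0.01, 0.015 and 0.016 on the centred log2 scale. As 802 genes lay within 0.1, a likeness over 4 libraries sets few genes apart.

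*igfbp1b* had 3 and 1 reads in longfin and 0 and 0 reads in wildtype libraries (two-sided exact conditional p = 0.0602).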
